A study of Rattus norvegicus with 32 samples.

Results

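The interferon response and antigen processing genes are a group of rat genes that interferons switch on in most cells, together with genes that cut and load peptides for display to T cells. They are defined by name, from a list of 45 rat symbols drawn up when earlier results of these data were known: the rows of the deposited counts table whose NCBI gene IDs carry these symbols are the members (Rigi stands in the RefSeq gene table as Rig1, with Ddx58 as its synonym). Of the 45, 42 were among the 17327 genes of the table, and Ifi44l, Xaf1 and Herc6 were not. All 42 passed the filter on low counts, which kept 13312 genes for testing. By role, the 42 comprise 6 sensors of foreign nucleic acid and their helpers, 6 transcription factors, 15 antiviral effectors, 4 genes of ISG15 conjugation and ADP-ribosylation, 5 interferon-inducible GTPases and 6 genes of antigen processing.

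As background, cells release type I interferons after sensors such as RIG-I and MDA5 meet viral RNA. The interferons bind receptors on the same and on neighbouring cells, and this leads STAT2 and IRF9 to the interferon-stimulated response element (ISRE) in front of genes such as Mx1 and Isg15. Interferon gamma, made mainly by T and NK cells, acts on genes with a gamma-activated sequence (GAS) and is the main inducer of Ciita, the immunoproteasome and the GBP and IRG GTPases. In the uterus these genes are known to be active in epithelium, stroma and resident immune cells, and many of them respond to the hormonal state of the tissue.

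RNA-seq was performed on uterus of Sprague-Dawley rats from the NCTR colony, with 8 groups of 4 libraries. The control group received the vehicle, 0.3% carboxymethylcellulose. EE2 (ethinyl estradiol, an orally active estrogen) was dosed daily at 0.05 or 0.5 µg per kg of body weight, and BPA (bisphenol A, a plastic monomer with weak estrogenic activity) at 2.5, 25, 250, 2500 or 25000 µg per kg per day. Dosing was by gavage in every group, of the dams from gestation day 6 until labour and of the pups themselves from postnatal day 1 to the end of the experiment at PND365. Groups are named by agent and dose below (EE2 0.05, BPA 250). The library numbers 1 to 4 within a group are only names. The labels give no animal, litter, estrous stage or part of the uterus for a library, so each p-value reflects spread among libraries only, part of which may be technical.

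Total counts per library ranged from 11777809 to 24661856. Markers of uterine tissue were present in every group: the 5 smooth muscle markers summed to between 9778 and 30925 CPM (counts scaled to the size of the library, with TMM factors from edgeR), the 3 endometrial stroma markers to between 418 and 1035, and the 6 epithelial markers to between 487 and 2265. Libraries 1 and 3 of BPA 2.5, library 1 of BPA 250 and library 3 of BPA 25000 stood apart from the others in an earlier look at all genes, and the calls below are also given without these 4. Control library 2 stood apart in the members themselves. In it 41 of 42 members were below their mean over the 32 libraries, by a median of 0.76 on the log2 scale, while 51.7% of all tested genes were above theirs. The same library had the lowest sum of T and NK cell markers (47.9 CPM over 13 markers) and the highest sum of smooth muscle markers (30925 CPM). The part of cell composition in the members' levels there was not tested. In whole tissue, fewer cells of a type and less RNA per cell cannot be told apart.

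The members share short sequences near their start sites, which the choice by symbol did not use. RefSeq promoters (build GRCr8, 250 bases before to 50 bases after the start; the counts rest on the older build rn5) were matched for 34 of the 45 listed genes. The ISRE core was searched as GAAA, any 2 bases and GAAA, and the GAS as TTCNNNGAA, on both strands and with overlaps between matches allowed. The ISRE string was found in 21 of the 34 (61.8%), and in 3.77% of the 27457 promoters of the table. The GAS string was found in 11 of 34 (32.4%) against 8.68% of all promoters, and both strings in 7 of 34 (20.6%) against 0.524%. Neither string was present in 9 of 34: Cd74, Herc6, Ifi35, Mx1, Oasl, Parp9, Psmb9, Stat2 and Trim25. A match is a description of letters in this window, not of a site in use.

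The first 4 windows below belong to 4 of the 6 members that differed between groups in these data. The others were Trim25, which held neither string, and Rtp4, whose promoter was not matched. Capitals mark the matched string, and the sequences are 5′ to 3′ in the direction of the gene. Rsad2, Tap2 and Gbp5 have 1 ISRE string each (TTTC, 2 bases and TTTC where it lies on the other strand), and Irf8 has 2 GAS strings. They lie at chr6:48788243-48788282 (minus strand), chr20:4652313-4652352 (minus), chr2:233910928-233910967 (plus) and chr19:65699089-65699146 (plus).
Rsad2: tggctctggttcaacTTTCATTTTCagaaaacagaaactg
Tap2: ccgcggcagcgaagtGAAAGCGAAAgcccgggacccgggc
Gbp5: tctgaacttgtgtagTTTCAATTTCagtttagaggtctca
Irf8: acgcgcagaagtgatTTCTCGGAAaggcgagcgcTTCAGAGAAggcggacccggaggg

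The next 3 windows show a shared arrangement that was noticed after the sequences were seen: a GAS string, 2 bases, then an ISRE string on the same strand. Igtp and Irgm encode interferon-inducible GTPases, and Parp14 an ADP-ribosyltransferase. Of all promoters in the table, 7 held this arrangement (0.0255%), and 3 of these 7 were members. The windows lie at chr10:42874918-42874968 (plus), chr10:33742588-33742638 (minus) and chr11:78408032-78408082 (plus).
Igtp: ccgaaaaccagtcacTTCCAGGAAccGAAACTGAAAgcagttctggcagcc
Irgm: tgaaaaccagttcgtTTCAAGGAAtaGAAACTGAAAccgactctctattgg
Parp14: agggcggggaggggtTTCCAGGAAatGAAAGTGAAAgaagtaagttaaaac

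The last 2 windows are shown because matches overlap in them. Bst2 encodes tetherin, which holds budding virus on the cell surface, and its window (chr16:18255068-18255119, minus) has a GAS string running into 2 overlapping ISRE strings. Oas1a, a sensor enzyme that makes 2-5A, has 2 overlapping ISRE strings (chr12:41330410-41330455, plus).
Bst2: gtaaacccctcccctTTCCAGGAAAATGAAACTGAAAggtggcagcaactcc
Oas1a: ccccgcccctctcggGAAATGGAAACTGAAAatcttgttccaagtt

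**Figure D1:**
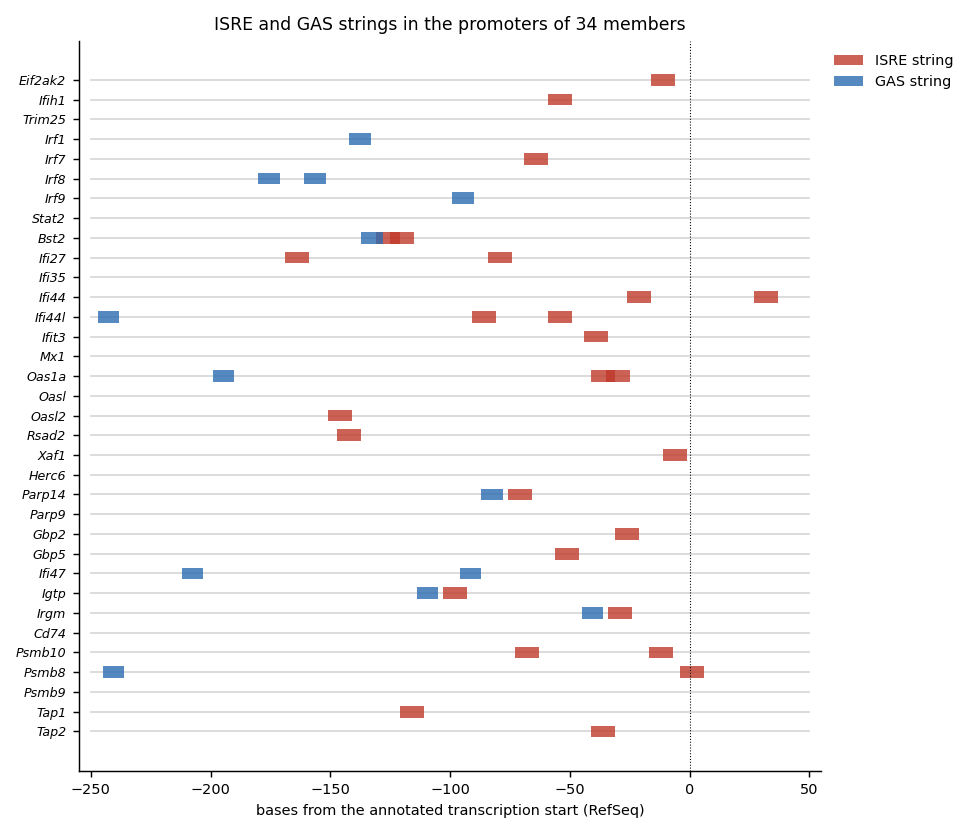
Position of each ISRE string (red) and GAS string (blue) in the promoters of 34 listed genes, in bases from the annotated transcription start; each grey line is 1 promoter. Of the 34, 21 hold an ISRE string and 11 a GAS string, and the closely spaced pairs of Igtp, Irgm and Parp14 are visible as a blue box followed at once by a red one.

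The members moved together from library to library, also within groups. A single component held 52.8% of the members' variance within groups, against 19.1% for all tested genes. These are descriptions across libraries that share depth and tissue make-up.

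Libraries of 1 group could lie far apart. Counted against the mean over all libraries, 41 of 42 members were high in EE2 0.05 library 1 (median 0.59 on the log2 scale) and in BPA 25000 library 4 (median 0.38). BPA 25 was split, with libraries 1 and 3 low (medians -0.60 and -0.50) and libraries 2 and 4 high (0.26 and 0.33). In BPA 250, library 2 was high (0.50) and library 3 low (-0.47). Summed T and NK markers were lowest in control library 2 and low in BPA 250 library 3 (57.0 CPM), BPA 2.5 library 1 (60.3 CPM) and BPA 25000 library 3 (67.3 CPM), in each of which the members were also low. In BPA 25 they did not follow the members: the low libraries 1 and 3 had 86.6 and 84.7 CPM, and the high libraries 2 and 4 had 70.6 and 103 CPM.

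**Figure D2:**
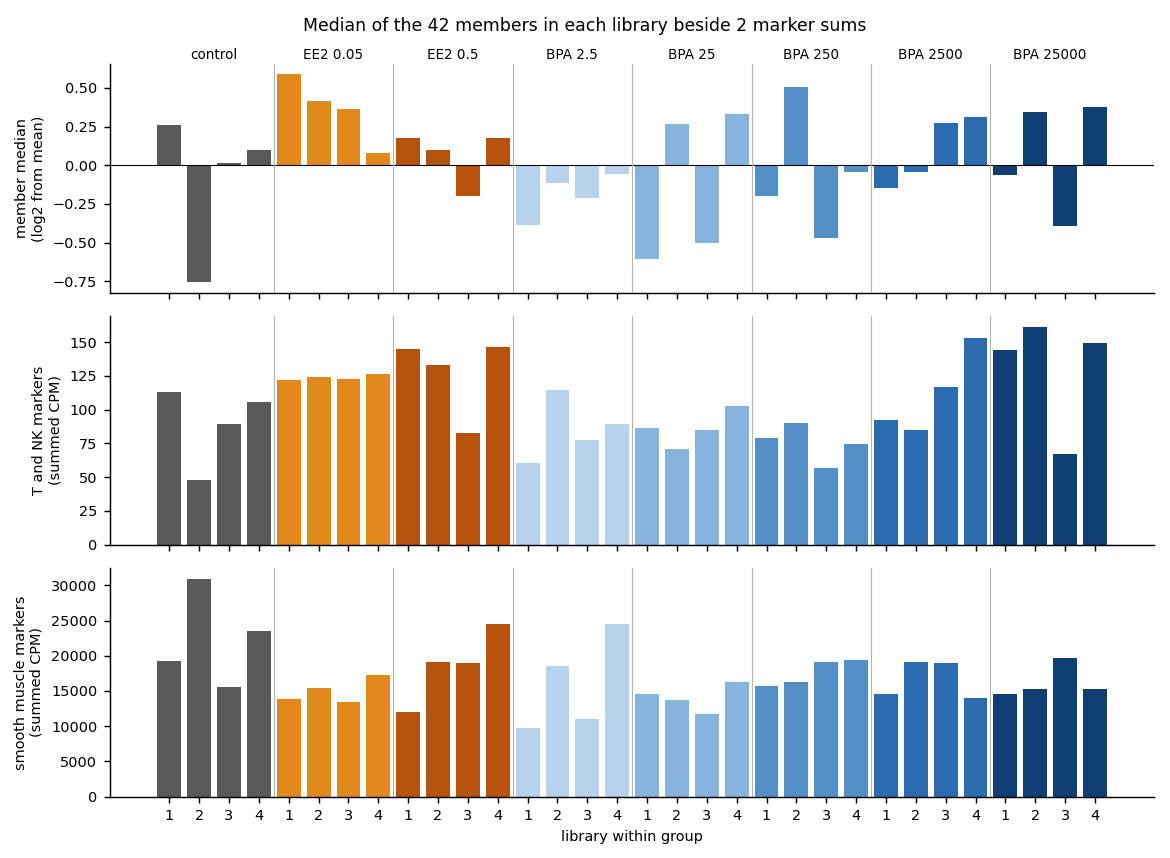
Top, median over the 42 members of log2 CPM minus the gene's mean over the 32 libraries; middle and bottom, summed CPM of the T and NK markers and of the smooth muscle markers; 1 bar per library, numbered within its group. Control library 2 has the lowest member median (-0.76), the lowest T and NK sum and the highest smooth muscle sum.

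**Figure D3:**
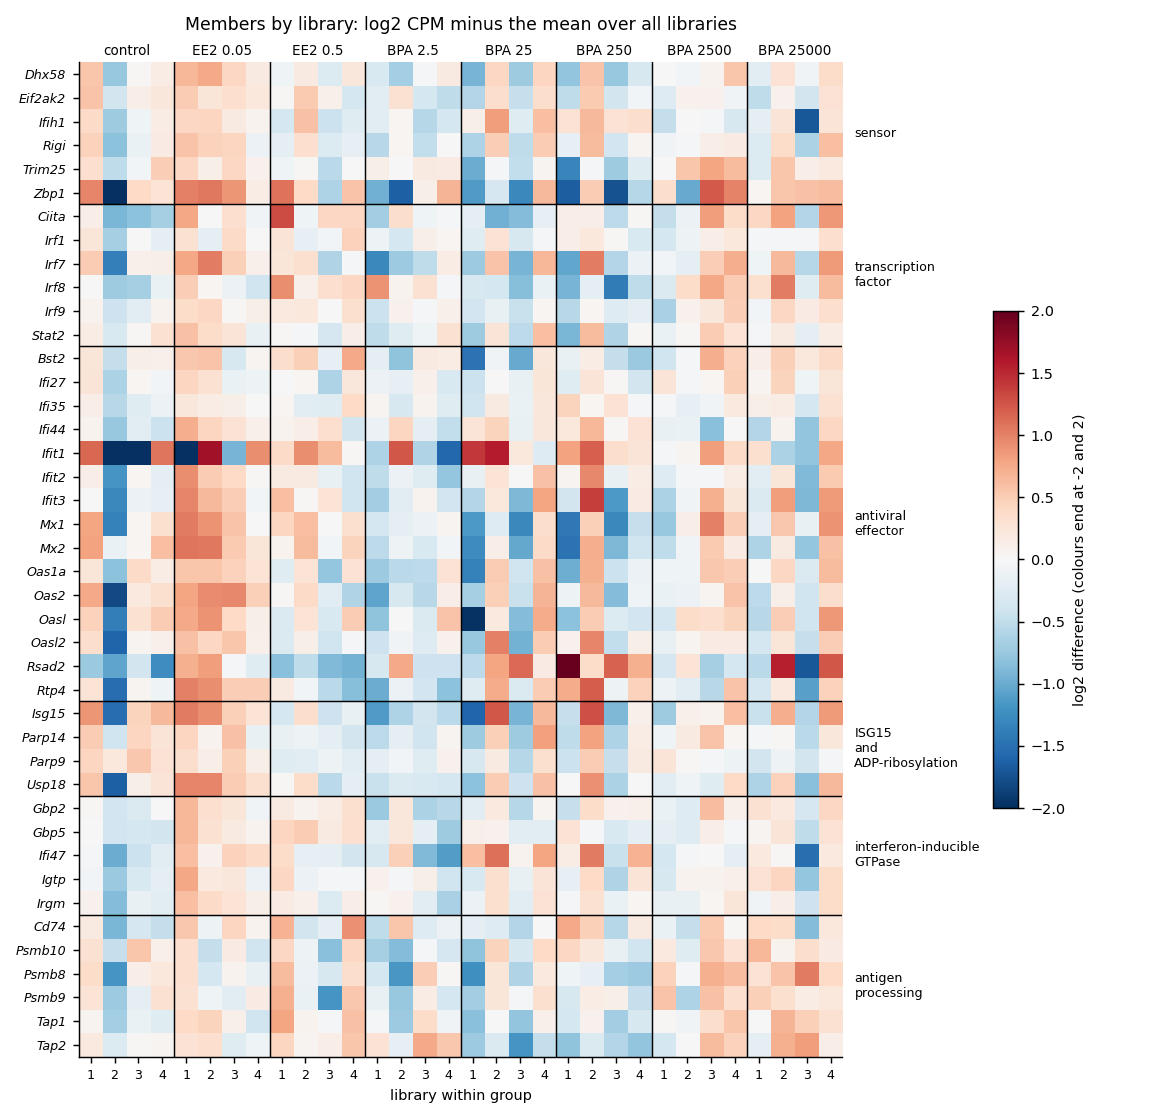
Log2 CPM minus the mean over 32 libraries for the 42 members (rows, by role) in each library (columns, by group); colours end at -2 and 2. Whole columns share a colour, such as the blue control library 2 and the red EE2 0.05 library 1, while Ifit1 and Rsad2 depart from their columns.

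When all 8 groups were compared at once, 6 of 42 members differed between some of the groups: Tap2, Rsad2, Irf8, Trim25, Rtp4 and Gbp5. This is 14.3% of the members, and the same edgeR quasi-likelihood test called 31.7% of all tested genes at an adjusted p under 0.05. At an unadjusted p under 0.05 the counts were 10 members and 45.1% of all genes. Leaving out single libraries moved the edgeR count from 3 (without BPA 2.5 library 1, where 26% of all genes were called) to 9 (without BPA 2.5 library 2, 37.8%). Without the 4 libraries that stood apart it was 5 (Ciita, Gbp5, Irf8, Rsad2 and Tap2; 26.4% of all genes), and DESeq2 called 10 (43.3% of all genes). Against control, in 7 separate comparisons that all use the same 4 control libraries, 1 member passed the threshold once: Rsad2, higher at BPA 250. The other 41 passed in none of the 7. Libraries of 1 group also lay wholly outside the control range for many genes. All 4 lay above all 4 control libraries for 5.71% of all tested genes at EE2 0.05 (6 members), 6.80% at EE2 0.5 (3), 10.2% at BPA 25 (1) and 9.50% at BPA 250 (1). They lay below for 6.02% at EE2 0.5, 5.72% at BPA 2.5, 9.79% at BPA 25, 9.77% at BPA 250 and 7.14% at BPA 25000 (1 member each). The following paragraphs give the members by role, with values in CPM for libraries 1, 2, 3 and 4 in turn.

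Rsad2 encodes viperin, an antiviral enzyme of the endoplasmic reticulum and lipid droplets. Rsad2 was at 21.5, 17.2, 27.9 and 15.2 CPM in control, 59.1, 64.6, 35.5 and 30.5 at EE2 0.05 and 20.2, 25.4, 19.6 and 18.8 at EE2 0.5. With BPA, Rsad2 was at 28.8, 61.1, 26.9 and 27.2 CPM at 2.5, 24.9, 62.6, 79.3 and 40.4 at 25, 186, 46.6, 81.6 and 59.3 at 250, 28.5, 43.7, 22.6 and 28.2 at 2500 and 24.8, 106, 11.1 and 85.7 at 25000. All libraries of BPA 250 and of EE2 0.05 were above all control libraries, and the libraries of BPA 25000 held both the lowest value of all 32 and 2 of the highest 3. The mean rose from 20.4 ± 5.61 CPM (SD, n = 4) in control to 93.3 ± 63.3 CPM (SD, n = 4) at BPA 250, a log2 fold change of 2.19 with SE 0.504 (edgeR, adjusted p = 0.0130). In that comparison 8.79% of all tested genes were called, 4.44% as higher. Without BPA 250 library 1, the highest of all, the log2 fold change was 1.63 and edgeR's adjusted p was 0.0677; without the 4 libraries that stood apart it was 1.62 with an adjusted p of 0.0255.

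The neighbouring effector Cmpk2, a mitochondrial nucleotide kinase that sits beside Rsad2 in the genome, was on the list of other pathway genes and also rose at BPA 250. Cmpk2 was at 22.8, 9.92, 16.7 and 13.7 CPM in control and 59, 32.2, 34 and 32.2 at BPA 250, without overlap (log2 fold change 1.32, SE 0.353, edgeR adjusted p = 0.0243; 1.06 and 0.0442 without the 4 libraries that stood apart). At the other BPA doses the Rsad2 difference from control did not pass: the log2 fold change was 1.34 at BPA 25 (adjusted p = 0.104, edgeR) and 1.48 at BPA 25000 (adjusted p = 0.0982, edgeR). Among the 8 groups Rsad2 differed with an adjusted p of 0.00763 in edgeR, and it stayed under 0.05 whichever of the 32 libraries was left out and without the 4 libraries that stood apart (0.00601).

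Of the other antiviral effectors, none passed against control in edgeR at any dose. Mx1, a dynamin-like GTPase that blocks viral nucleocapsids, was at 188, 42.6, 111 and 136 CPM in control, 223, 203, 162 and 109.5 at EE2 0.05 and 147, 166, 108 and 135 at EE2 0.5. With BPA, Mx1 was at 85.1, 95.8, 100.5 and 113 CPM at 2.5, 48.8, 90.9, 44.3 and 138 at 25, 40.5, 152, 44.5 and 79.4 at 250, 64.3, 119.8, 219 and 154 at 2500 and 96, 157, 98.3 and 203 at 25000. Every group overlapped control, where library 2 was far below the other 3.

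Oas1a was at 24.5, 11.7, 27.2 and 23.1 CPM in control, 30.5, 30.7, 28.7 and 25.2 at EE2 0.05 and 17.6, 25.1, 12.1 and 25.5 at EE2 0.5. With BPA, Oas1a was at 12.5, 14.2, 14.5 and 25.5 CPM at 2.5, 8.06, 29.6, 15.7 and 31.1 at 25, 10.5, 34, 15.3 and 19.1 at 250, 19.6, 19.7, 30.2 and 29.3 at 2500 and 20.8, 27.6, 17 and 32.2 at 25000. The EE2 0.05 libraries were the most even of any group, and BPA 25 and BPA 250 the most spread.

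Ifi27, a small mitochondrial protein, was the effector with the second smallest spread. Ifi27 was at 164, 88.8, 142 and 133 CPM in control, 186, 170.1, 125 and 129 at EE2 0.05 and 138, 142, 89.5 and 161 at EE2 0.5. With BPA, Ifi27 was at 127, 123, 148 and 112 at 2.5, 103, 137, 124 and 163 at 25, 117, 164, 141 and 107 at 250, 164, 134, 142 and 191 at 2500 and 143, 188, 131 and 163 at 25000. Control library 2 was the lowest of all, and no group separated from control.

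Ifit1, which binds viral RNA caps, had the largest spread within groups of any member (biological coefficient of variation 0.767 in edgeR, against a median of 0.297 over the members). Ifit1 was at 35.3, 0.444, 2.75 and 33.4 CPM in control, 1.25, 51.2, 8.28 and 30.3 at EE2 0.05 and 20.8, 30.4, 24.6 and 16.1 at EE2 0.5. With BPA, Ifit1 was at 10.3, 37.4, 10.4 and 5.23 CPM at 2.5, 42.3, 47.4, 18.3 and 13.2 at 25, 27.8, 36.3, 20.3 and 19.1 at 250, 15.5, 16.5, 28.4 and 20.7 at 2500 and 19.7, 10.1, 9.11 and 27.2 at 25000. Control libraries 2 and 3 and EE2 0.05 library 1 were almost without it, although the last of these was the library in which the other members were highest. Reads of Ifit1 may be shared with close relatives of the IFIT family, and how the authors' counting treated them is not given in the sources used here.

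Rtp4, a chaperone of membrane receptors that is induced by interferon, differed among the groups. Rtp4 was at 37, 10.5, 31.5 and 28.8 CPM in control, 61.5, 58, 43.1 and 42.9 at EE2 0.05 and 34.4, 29.5, 21 and 16.8 at EE2 0.5. With BPA, Rtp4 was at 15.3, 28.2, 23.3 and 17.2 CPM at 2.5, 25.6, 51.2, 24.8 and 43.6 at 25, 51.3, 70.4, 28.4 and 41.9 at 250, 28.3, 26.2, 20.8 and 45.3 at 2500 and 23.9, 35.1, 14.3 and 41.9 at 25000. All EE2 0.05 libraries were above all control libraries and above all EE2 0.5 libraries, and the group mean was highest there, at 51.4 ± 9.78 CPM (SD, n = 4). The share of all genes that separate the EE2 doses was not counted. The edgeR test among the 8 groups gave an adjusted p of 0.0346. Leaving out any 1 of 6 libraries (EE2 0.05 libraries 1 or 2, BPA 2.5 libraries 1 or 4, BPA 250 libraries 1 or 2) brought the adjusted p above 0.05, to between 0.0525 and 0.0731, and without the 4 libraries that stood apart it was 0.102. Rtp4 overlaps Masp1 in the annotation, and strand use in the counting is not given in the sources used here.

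Ifi35 and Ifi44 mark the effectors with the narrower spread. Ifi35, which forms a complex with NMI, had the smallest coefficient of variation of any member (0.180), and its group means ran from 24.3 CPM in control to 31.5 at BPA 250. Group means of Ifi44 ran from 109 to 176 CPM. Of the remaining effectors, the group means of Ifit2 lay between 47.4 and 87.8 CPM, of Ifit3 between 15.1 and 27.8, of Mx2 between 114 and 234, and of Oas2 between 22.2 and 51.0. Those of Oasl lay between 11.7 and 19.6 CPM, of Oasl2 between 54.0 and 80.6, and of Bst2 between 82.9 and 146. None of these members passed in any comparison under the edgeR test, and members of the Mx, Oas and Ifit families may share reads with their paralogs.

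**Figure D4:**
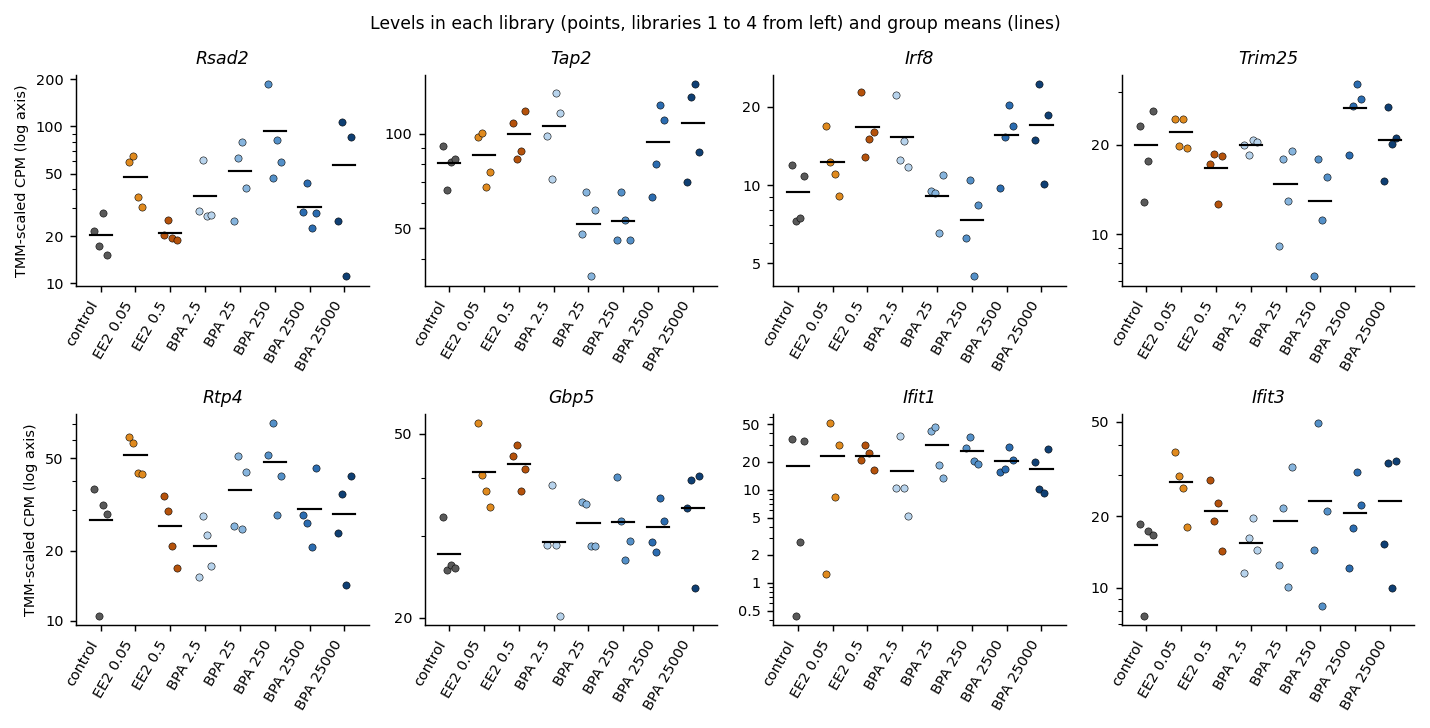
TMM-scaled CPM (log axis) of 8 members in each library (points, libraries 1 to 4 from left) and the group means (lines); the first 6 differed among the 8 groups in the edgeR test, and Ifit1 and Ifit3 are shown for comparison. Rsad2 at BPA 250 lies above control, Tap2 at BPA 25 and BPA 250 lies below it, and Ifit1 spans 0.444 to 35.3 CPM within control alone.

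ISG15 is a ubiquitin-like protein that is attached to newly made proteins, and Usp18 removes it. Isg15 was at 33.8, 6.29, 25 and 28.6 CPM in control, 37.8, 34.9, 25.5 and 22 at EE2 0.05 and 14.3, 23.2, 13.6 and 16.5 at EE2 0.5. With BPA, Isg15 was at 8.30, 11.9, 14.2 and 12.5 CPM at 2.5, 6.02, 43.6, 9.53 and 28.6 at 25, 13.2, 44.9, 9.71 and 19.6 at 250, 11.1, 19.6, 19.1 and 27.9 at 2500 and 13.4, 30.2, 12.2 and 33.2 at 25000. Single libraries of BPA 25 and BPA 250 were the highest of all, beside others of the same groups that were among the lowest, and no group separated from control. Usp18 group means lay between 27.1 and 57.2 CPM, and those of Parp14 between 292 and 414.

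Parp9, the partner of DTX3L in ADP-ribosylation, had a mean below control in every exposed group, each set against the same control libraries. Parp9 was at 335, 287, 359 and 302 CPM in control, 316, 272, 344 and 267 at EE2 0.05 and 209, 211, 231 and 212 at EE2 0.5. With BPA, Parp9 was at 216, 239, 208 and 264 CPM at 2.5, 198.6, 280.3, 166 and 309 at 25, 184, 350.4, 179.9 and 279 at 250, 295.6, 252, 244 and 230 at 2500 and 191, 231, 192 and 242 at 25000. All libraries of EE2 0.5, BPA 2.5 and BPA 25000 were below all control libraries, as for 6.02%, 5.72% and 7.14% of all tested genes. The other groups overlapped control. The differences did not pass the threshold: the log2 fold change was -0.57 at EE2 0.5 (edgeR, adjusted p = 0.116), -0.47 at BPA 2.5 (0.0951) and -0.58 at BPA 25000 (0.0800). DESeq2 called the last of these. Parp9 overlaps Dtx3l in the annotation, so that unstranded counting could not tell their reads apart.

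Among the sensors, Trim25, a ubiquitin ligase that helps RIG-I signal, differed among the groups. Trim25 was at 23.1, 12.9, 17.6 and 25.9 CPM in control, 24.3, 19.8, 24.4 and 19.5 at EE2 0.05 and 17.2, 18.6, 12.6 and 18.3 at EE2 0.5. With BPA, Trim25 was at 19.96, 18.5, 20.7 and 20.5 CPM at 2.5, 9.16, 17.8, 12.9 and 19.1 at 25, 7.24, 17.9, 11.1 and 15.5 at 250, 18.5, 27, 31.9 and 28.4 at 2500 and 15.2, 26.8, 20.1 and 21 at 25000. The lowest mean was at BPA 250 (13 ± 4.74 CPM (SD, n = 4)) and the highest at BPA 2500 (26.4 ± 5.70 CPM (SD, n = 4)). Both groups overlapped control. Their ranges did not overlap each other, but they were picked as the extremes of the 8 groups. The share of all genes that separate these groups was not counted. The edgeR test among the 8 groups gave an adjusted p of 0.0340. The call was lost in 12 of the 32 single omissions (EE2 0.05 library 3, EE2 0.5 library 3, BPA 2.5 libraries 1 and 3, BPA 25 library 3, BPA 250 libraries 1 and 3, BPA 2500 libraries 2, 3 and 4, and BPA 25000 libraries 3 and 4), with an adjusted p of at most 0.0917. Without the 4 libraries that stood apart it was 0.0866.

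The other sensors passed the edgeR test in no comparison. Zbp1, which senses Z-form nucleic acid and can start necroptosis, was at 9.57, 0.962, 6.38 and 5.78 CPM in control and had the second largest coefficient of variation of the members (0.559). Its group means lay between 3.20 CPM at BPA 250 and 8.52 at EE2 0.05. Group means of Rigi (RIG-I) lay between 53.6 and 80.5 CPM, of Ifih1 (MDA5) between 31.7 and 50.02, of Dhx58 (LGP2, their regulator) between 14.6 and 24.2, and of Eif2ak2 (PKR, which halts translation) between 144 and 202.

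Of the transcription factors, Irf8 was the member that differed among the groups. IRF8 directs the development of macrophages and dendritic cells and works with other IRFs on ISRE-like sites. Irf8 was at 12, 7.25, 7.46 and 10.9 CPM in control, 16.9, 12.3, 11 and 9.05 at EE2 0.05 and 22.9, 12.9, 15 and 16 at EE2 0.5. With BPA, Irf8 was at 22.3, 12.5, 14.8 and 11.8 CPM at 2.5, 9.50, 9.32, 6.54 and 10.9 at 25, 6.23, 10.4, 4.46 and 8.37 at 250, 9.77, 15.3, 20.4 and 16.9 at 2500 and 14.9, 24.5, 10.1 and 18.6 at 25000. All EE2 0.5 libraries were above the control libraries, as were 3 of 4 libraries at each of BPA 2.5, BPA 2500 and BPA 25000. EE2 0.05 had libraries within and above the control range, whereas BPA 25 and BPA 250 lay within or below it. The edgeR test among the 8 groups gave an adjusted p of 0.00783, and it stayed under 0.05 in all 32 single omissions and without the 4 libraries that stood apart (0.0116). Against control, the log2 fold change was 0.83 at EE2 0.5 (edgeR, adjusted p = 0.159), 0.71 at BPA 2.5 (0.116), 0.73 at BPA 2500 (0.390) and 0.86 at BPA 25000 (0.106).

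Irf8 and Ciita are also made by immune cells, so the marker sums of those cells are given beside them. The 11 macrophage markers summed to 356-528 CPM in control, 548-639 at EE2 0.05, 562-769 at EE2 0.5, 372-650.5 at BPA 2.5, 432-690 at BPA 25, 441-610 at BPA 250, 521-791 at BPA 2500 and 268-850 at BPA 25000. The 13 T and NK markers summed to 47.9-113 CPM in control, 122-126 at EE2 0.05, 82.7-147 at EE2 0.5, 60.3-114 at BPA 2.5, 70.6-103 at BPA 25, 57.0-90.2 at BPA 250, 84.9-153 at BPA 2500 and 67.3-161 at BPA 25000, with Klrb1 at 0 throughout control, EE2 0.05 and BPA 25000. The 7 dendritic cell markers summed to 17.9-28.6 CPM in control, 28.2-34.3 at EE2 0.05, 35.4-50 at EE2 0.5, 19.4-35.6 at BPA 2.5, 28.2-43.0 at BPA 25, 25.5-62.4 at BPA 250, 30.1-43.7 at BPA 2500 and 23.4-51.3 at BPA 25000, where Cd209a was at 0. The 4 plasmacytoid dendritic cell markers summed to 119-134 CPM in control, 119-167 at EE2 0.05 and 130.3-180 at EE2 0.5. With BPA, their sums were 134-169 CPM at 2.5, 104-135 at 25, 93.1-128 at 250, 121-209 at 2500 and 154-183 at 25000. These sums hold only Tcf4, Bcl11a, Irf4 and Spib, because the listed markers Siglech and Ptcra were not in the table. How far they follow plasmacytoid dendritic cells was not tested. The 5 markers of B and plasma cells were near 0, at no more than 5.66 CPM in any library. The part of these cells in the members' differences was not tested.

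Ciita is the master activator of MHC class II genes. Ciita was at 18.5, 8.81, 9.42 and 10.5 CPM in control, 28.9, 16.6, 21.1 and 15.9 at EE2 0.05 and 41.5, 15.8, 22.5 and 22.4 at EE2 0.5. With BPA, Ciita was at 10.3, 21.6, 15.8 and 16.4 CPM at 2.5, 14.8, 8.58, 9.19 and 15 at 25, 18.4, 18.4, 11.6 and 17 at 250, 12.1, 15.4, 30.04 and 21.6 at 2500 and 22.4, 29.3, 11.1 and 30.7 at 25000. Control library 1 was well above the other 3, and both EE2 groups overlapped control through that library alone. The test among the 8 groups gave an adjusted p of 0.0510 in edgeR, just above the threshold, and at EE2 0.5 the log2 fold change was 1.12 without passing (adjusted p = 0.0991 in edgeR). Without control library 1, Ciita passed at EE2 0.5, in a fit that called 1.53% of all genes.

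The remaining factors followed the libraries more than the groups. Irf7, which amplifies type I interferon, was at 96.7, 26.2, 72.8 and 74 CPM in control, 116, 139, 93.9 and 72.8 at EE2 0.05 and 80.6, 85, 44.9 and 66.4 at EE2 0.5. With BPA, Irf7 was at 27.6, 40.9, 47.6 and 74.8 CPM at 2.5, 40.7, 101, 35.7 and 108 at 25, 33.1, 138, 45.2 and 62.5 at 250, 65.4, 59.7, 95.5 and 113 at 2500 and 64.1, 106, 45.4 and 123 at 25000. Control library 2 was the lowest of all 32, and BPA 25 fell into a low and a high pair of libraries.

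Stat2, which acts with IRF9 in type I signalling, was at 77, 56.1, 70.4 and 85.7 CPM in control, 105, 89.8, 83.7 and 62.6 at EE2 0.05 and 70.4, 68.2, 55.3 and 76.2 at EE2 0.5. With BPA, Stat2 was at 48.8, 59, 65.7 and 86.3 CPM at 2.5, 42.5, 83.2, 48.4 and 106 at 25, 36.9, 108, 45.6 and 70.6 at 250, 63.5, 70.7, 99.3 and 84.5 at 2500 and 67.4, 78.7, 60.8 and 77.5 at 25000. Both the lowest and the highest library of all belonged to BPA 250, and all groups overlapped control.

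Irf1, an early target of interferon gamma, was at 79.8, 42.3, 67.4 and 59.7 CPM in control, 82.8, 59.1, 87.8 and 67 at EE2 0.05 and 80.6, 60.2, 64.8 and 92.8 at EE2 0.5. With BPA, Irf1 was at 62.5, 52.8, 73.4 and 68.8 CPM at 2.5, 56.9, 82.3, 54.1 and 65.3 at 25, 74.2, 78.2, 68.6 and 54.5 at 250, 52.8, 63, 73.7 and 78.1 at 2500 and 66.6, 65.6, 65.8 and 85 at 25000. Its group means were the closest together of any member, and control library 2 was again the lowest of all. Group means of Irf9, the DNA-binding partner of STAT2, lay between 40.8 and 56.3 CPM.

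The interferon-inducible GTPases attack membranes around intracellular parasites. Gbp5, which also promotes inflammasome activity, differed among the groups and was higher with EE2. Gbp5 was at 32.9, 25.3, 26 and 25.6 CPM in control, 52.6, 40.8, 37.5 and 34.7 at EE2 0.05 and 44.8, 47.3, 37.5 and 41.9 at EE2 0.5. With BPA, Gbp5 was at 28.7, 38.7, 28.8 and 20.2 CPM at 2.5, 35.6, 35.3, 28.6 and 28.5 at 25, 40.4, 32.3, 26.6 and 29.3 at 250, 29.1, 27.8, 36.4 and 32.4 at 2500 and 34.4, 39.7, 23.2 and 40.4 at 25000. All libraries of both EE2 doses were above all control libraries, and every BPA group overlapped control. The edgeR test among the 8 groups gave an adjusted p of 0.0452, which rose above 0.05 in 20 of 32 single omissions (to at most 0.0907, without EE2 0.5 library 2) but not without the 4 libraries that stood apart (0.0251). Against control alone the log2 fold change was 0.59 at EE2 0.05 (edgeR, adjusted p = 0.240) and 0.64 at EE2 0.5 (0.0884), and neither passed.

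Gbp2 was at 192, 145, 155 and 188 CPM in control, 299, 238, 223 and 180.3 at EE2 0.05 and 215, 199, 210.4 and 235 at EE2 0.5. With BPA, Gbp2 was at 113, 223, 122 and 129 CPM at 2.5, 162, 216, 128 and 196 at 25, 138, 245, 200.2 and 204 at 250, 173, 159, 289 and 202 at 2500 and 235, 216, 150.4 and 252 at 25000. The EE2 0.5 libraries were all above control, and 3 of 4 libraries of BPA 2.5 were below it. Group means of Irgm lay between 52.8 and 80.5 CPM, of Igtp between 31.1 and 47.4 and of Ifi47 between 36.8 and 77.3. Ifi47 was highest at BPA 25, at 72.4, 103, 50.5 and 83.1 CPM against 46.5, 24, 35.4 and 41.2 in control, without overlap (log2 fold change 1.07, SE 0.336, edgeR adjusted p = 0.0666, which does not pass). Reads of the GBP and IRG genes may be shared with close paralogs.

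Tap2 and Tap1 form the transporter that carries peptides into the endoplasmic reticulum for MHC class I. Tap2 differed most clearly of all members among the groups. Tap2 was at 91.6, 66.3, 81 and 83.3 CPM in control, 97.7, 101, 67.5 and 75.6 at EE2 0.05 and 108, 83.1, 88 and 118 at EE2 0.5. With BPA, Tap2 was at 98.2, 71.6, 135 and 117 CPM at 2.5, 48, 65.3, 35.2 and 57.4 at 25, 46, 65.3, 53.3 and 46.1 at 250, 62.9, 80.2, 124 and 110.4 at 2500 and 70.4, 131, 143 and 87.3 at 25000. All libraries of BPA 25 and BPA 250 were below all control libraries, and below all libraries of both EE2 doses and of BPA 2.5. Of all tested genes, 9.79% lay wholly below control at BPA 25 and 9.77% at BPA 250. The share that lay wholly below the EE2 groups or BPA 2.5 was not counted. The group means, 51.5 ± 12.9 CPM (SD, n = 4) at BPA 25 and 52.7 ± 9.11 CPM (SD, n = 4) at BPA 250, compare with 80.5 ± 10.5 CPM (SD, n = 4) in control and 108 ± 34.8 CPM (SD, n = 4) at BPA 25000. The edgeR test among the 8 groups gave an adjusted p of 0.00239, at most 0.00937 when a library was left out, and 0.0202 without the 4 libraries that stood apart. Against control alone, the log2 fold change was -0.65 at BPA 25 (edgeR, adjusted p = 0.101) and -0.61 at BPA 250 (0.0896), and neither passed.

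Tap1 also had its lowest group means at BPA 25 (17.7 CPM) and BPA 250 (18.02 CPM), against 18.9 CPM in control. Tap1 was at 22.9, 13.8, 20.2 and 18.7 CPM in control, 29.1, 30.01, 23.9 and 16.7 at EE2 0.05 and 38.4, 23.3, 21.4 and 33.1 at EE2 0.5. With BPA, Tap1 was at 21.5, 13.3, 28.7 and 21.2 CPM at 2.5, 12.3, 22.3, 12.7 and 23.6 at 25, 17.3, 23.4, 13.6 and 17.8 at 250, 22.6, 21.2, 28.3 and 32.7 at 2500 and 21.9, 35.4, 30.8 and 27.3 at 25000. All groups overlapped control, and the difference between the responses of the 2 genes was not tested.

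Psmb8, Psmb9 and Psmb10 are the catalytic subunits that turn the proteasome into the immunoproteasome. Psmb8 was at 33.5, 11.5, 28.5 and 30.1 CPM in control, 32.9, 20.5, 27.5 and 23.6 at EE2 0.05 and 40.6, 23.9, 20.8 and 33.3 at EE2 0.5. With BPA, Psmb8 was at 20.3, 11.5, 36.8 and 26.4 CPM at 2.5, 11, 30.8, 17.2 and 29.9 at 25, 24.7, 23.2, 16.1 and 15.7 at 250, 35.9, 25.5, 42.7 and 39.9 at 2500 and 32, 38.7, 53.9 and 34.4 at 25000. All groups overlapped control, and BPA 25000 library 3 was high for Psmb8 although most members were low in it.

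Psmb9 was at 14.2, 7.11, 10.4 and 14.6 CPM in control, 14.5, 11.1, 10.1 and 13.2 at EE2 0.05 and 19.4, 10.8, 5.11 and 17.2 at EE2 0.5. With BPA, Psmb9 was at 10.6, 6.93, 13.1 and 9.18 CPM at 2.5, 7.21, 14, 11.6 and 14.7 at 25, 9.46, 13.1, 12.7 and 8.49 at 250, 17.6, 7.63, 17.7 and 14.8 at 2500 and 16.4, 14.7, 13.1 and 13.6 at 25000. All groups overlapped control. Group means of Psmb10 lay between 16.3 and 27.8 CPM.

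Cd74, the invariant chain that guards the peptide groove of MHC class II, was at 1056, 495, 739.5 and 667 CPM in control, 1351, 867, 1246 and 979 at EE2 0.05 and 1499, 724, 812 and 1752 at EE2 0.5. With BPA, Cd74 was at 652, 1365, 774 and 858 CPM at 2.5, 814, 780.3, 622 and 923 at 25, 1569, 1291, 628 and 1057 at 250, 849, 671, 1329 and 945 at 2500 and 1230.3, 1198, 508 and 1081 at 25000. At least 1 library lay above every control library in each exposed group but BPA 25. The others lay within the control range, as did all of BPA 25.

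The comparisons with control ask which members each exposure moved. At EE2 0.05 the members stood higher as a group without any single one passing: 40 of 42 had a mean above control, by a median of 0.49 on the log2 scale, against 49.5% of all tested genes and a median of -0.0025. The exceptions were Psmb10 and Parp9. The 15 antiviral effectors (median 0.68) and the 5 GTPases (0.59) were all above, while the 6 antigen processing genes had a median of 0.11. With edgeR's quasi-likelihood test 0 members passed, as did 0.0451% of all genes. At an unadjusted p under 0.05 there were 10 members (23.8%, against 11.5% of all genes), all higher (5.64% of all genes were), among them all 5 GTPases, and DESeq2 called 0 members (0.498% of all genes). The nearest were Gbp5 (log2 fold change 0.59), Irgm (0.61) and Ifi44 (0.70). For 6 members all 4 libraries lay above all 4 control libraries, or 14.3% against 5.71% of all genes. Without control library 2 the count above control was 35 of 42 and the median 0.25. In all 4 EE2 0.05 libraries the T and NK sum (122-126 CPM) and the macrophage sum (548-639 CPM) were above those of all control libraries (47.9-113 and 356-528 CPM), although no marker of either list passed in edgeR, and 2 of 4 squamous epithelium markers were higher. The part of these cells in the members' shift was not tested.

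At EE2 0.5 the members were closer to control. Of the 42, 32 were above it (76.2%, against 50.2% of all genes), by a median of 0.17, and 0 passed in edgeR, where 0.556% of all genes did; 6 had an unadjusted p under 0.05 (14.3%, against 15.6%), and DESeq2 called Ciita and Gbp5 (3.68% of all genes). The nearest were Gbp5, Ciita and Parp9, with the values above. Without control library 2 the count above control was 17 and the median -0.12. Set against each other, EE2 0.5 was above EE2 0.05 for 11 of 42 members (49.2% of all genes), with a median of -0.33, and this contrast uses no control library. None passed in edgeR (0.0150% of all genes did) or DESeq2 (0.197%), and 5 members had an unadjusted p under 0.05 (9.01% of all genes), all of them lower (3.52% of all genes). The nearest was Rtp4, with a log2 fold change of -1.01 and an adjusted p of 0.451 in edgeR.

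At BPA 2.5, 0 members passed in edgeR against 11.4% of all tested genes, 3 had an unadjusted p under 0.05 (7.14% against 26.8%), and DESeq2 called 0 against 14.8%. The 3 were Parp9 and Psmb10 (log2 fold change -0.61) below control and Irf8 above it. Of the 42 members, 17 were above control (52.0% of all genes were), with a median of -0.11, and 20 (median -0.0030) without the libraries that stood apart. In this group markers of other cells differed from control too: the 3 ciliated cell markers all rose, with sums of 252 and 192 CPM in libraries 1 and 3, 2.69 and 1.91 in libraries 2 and 4 and 0.435-1.38 in control. Of the squamous epithelium markers 2 of 4 rose, and 1 of 3 endometrial stroma markers fell. Of the immune cell markers, 1 of 11 for macrophages and 1 of the 2 tested for B and plasma cells rose. Their part in the values at BPA 2.5 was not tested.

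At BPA 25 and BPA 250 the members were spread on both sides of control. At BPA 25, 23 were above it (median 0.03; 50% of all genes), 0 passed in edgeR against 1.92% of all genes, 5 had an unadjusted p under 0.05 (11.9% against 24.4%), and DESeq2 called Ifi47 and Rsad2 (8.44% of all genes). Both also passed in edgeR without the 4 libraries that stood apart, a fit that called 10.2% of all genes at this dose. None of those 4 is a library of BPA 25 or control. Leaving out 1 library of BPA 25 or control at a time gave 0 member calls at this dose in edgeR. At BPA 250, 21 were above (median -0.00047; 46.8% of all genes), and 26 (median 0.08) without the libraries that stood apart. Rsad2 was the 1 call in edgeR and in DESeq2, which called 13.8% of all genes. Here 7 members had an unadjusted p under 0.05 (16.7% against 28.6%): Rsad2, Ifi47, Ifi44, Rtp4 and Ifi35 higher, Tap2 and Trim25 lower. Leaving out BPA 250 library 2, in which the members were high, gave 4 calls in edgeR, namely Rsad2, Mx2, Parp9 and Trim25, in a fit that called 11.9% of all genes. Of the immune cell markers, 1 of 11 for macrophages was higher in edgeR at BPA 25, and 1 of 11 at BPA 250. At BPA 250, 1 of 4 plasmacytoid dendritic markers was higher, and 1 of 5 tested eosinophil and mast cell markers was lower. The part of these cells in the members' values was not tested.

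At BPA 2500 and BPA 25000, 36 of 42 members were above control in each, by medians of 0.24 and 0.25, against 51.8% and 51.0% of all genes. At BPA 2500, 0 members and 0% of all genes passed in edgeR, 2 members had an unadjusted p under 0.05 (4.76% against 10.2%; Irf8, and Ciita with a log2 fold change of 0.75), and DESeq2 called 0 against 0.654%. At BPA 25000, 0 passed against 2.32% of all genes, 5 had an unadjusted p under 0.05 (11.9% against 19.3%), and DESeq2 called Parp9 and Rsad2 (5.90% of all genes). Without BPA 25000 library 3, edgeR called 3 members there, Ciita, Irf8 and Rsad2, and 3.74% of all genes; without all 4 libraries that stood apart it called the same 3 and 5.59% of all genes. Without control library 2 the counts above control were 21 and 18 of 42, with medians of 0.00098 and -0.04, so the shift at these doses rested on that library.

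**Figure D5:**
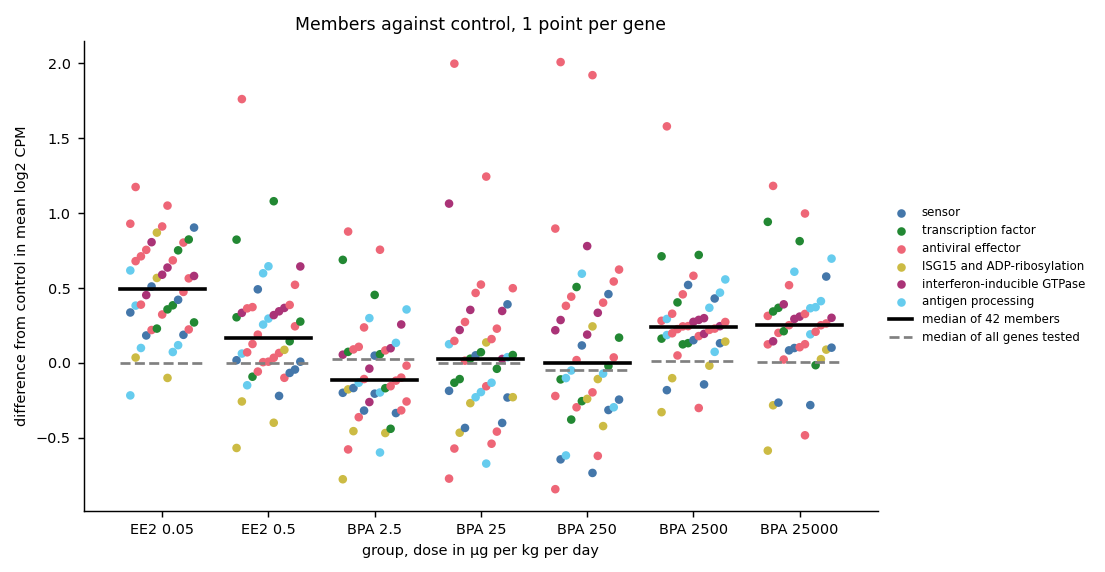
Difference from control in mean log2 CPM for each of the 42 members (points, coloured by role) at each dose, with the members' median (black) and the median of all tested genes (dashed grey). At EE2 0.05, 40 of 42 points lie above 0, with a median of 0.49; all 7 columns share the same 4 control libraries, of which library 2 is low.

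Across the 5 BPA doses alone, which needs no control library, 37 of 42 members had a positive slope on log10 dose, by a median of 0.07 log2 units per unit of log10 dose, against 51.3% of all genes. Without the libraries that stood apart it was 39 of 42, with a median of 0.09. None passed in edgeR (4.62% of all genes did), or in edgeR without those libraries (1.19%), and DESeq2 called Psmb8 (8.22% of all genes). At an unadjusted p under 0.05 there were 7 members (16.7% against 22.8%), all with a positive slope (9.13% of all genes): Psmb8, Psmb10, Gbp2, Tap1, Ciita, Bst2 and Irf9. Of these, 3 belong to antigen processing. Psmb8 had a slope of 0.22 (SE 0.0742, edgeR adjusted p = 0.0828). Calls of a slope depended on the BPA 2.5 libraries: without library 3 of that group Psmb8 passed (4.12% of all genes did), and without library 2 Gbp2 did (4.41%). For the mean of the EE2 doses edgeR called 0 members (0.0676% of all genes), 10 had an unadjusted p under 0.05 (15% of all genes), and DESeq2 called Ciita and Gbp5 (2.60% of all genes). For the mean of the BPA doses edgeR called 0 (1.34% of all genes), 2 had an unadjusted p under 0.05 (18.7% of all genes; Parp9 lower, Rsad2 higher), and DESeq2 called Rsad2 (5.83% of all genes).

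Beyond the members, 108 further genes of the interferon and antigen presentation pathways were listed, of which 94 were in the table and 90 were tested. The listed interferon genes Ifna1, Ifne and Ifnl3 were not in the table, so their levels are unknown. Of the 5 interferon genes in the table, 4 were below the filter on low counts: Ifnb1 had 0 counts in all 32 libraries together, Ifna4 12, Ifna2 48 and Ifng 63, the last over 15 libraries. The other, Ifnk, was tested and passed in no comparison. Cxcl10, a chemokine for T cells, was at 5.95, 4.81, 10.2 and 12.7 CPM in control, 25.4, 9.44, 13.7 and 20.3 at EE2 0.5 and 17, 29.6, 9.05 and 20.6 at BPA 25000, and passed in no comparison.

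Against control, the share of these 90 genes that passed in edgeR was 1.11% at EE2 0.5 (0.556% of all genes), 6.67% at BPA 2.5 (11.4%), 1.11% at BPA 25 (1.92%), 4.44% at BPA 250 (8.79%) and 2.22% at BPA 25000 (2.32%). At EE2 0.5, RT1-DOb, a class II-like chain that tunes peptide loading, rose from 1.03, 0.444, 0.942 and 0.279 to 5.59, 2.09, 2.91 and 4.35 CPM. It was the 1 call there (log2 fold change 2.46, edgeR adjusted p = 0.0466). Without the 4 libraries that stood apart its adjusted p was 0.0190 in edgeR, but none of these is of control or EE2 0.5. Without control library 2, 3 or 4, 0 of all tested genes passed at EE2 0.5 in edgeR, so this call was lost. At BPA 2.5, 6 passed: Ikbke, Tnfsf10 and Trim34 rose, and Ifitm2, the chaperone Canx and the proteasome activator Psme2 fell. Without libraries 1 and 3 of that group and the other 2 that stood apart, none of these 6 passed, nor any other of the 90, with adjusted p from 0.0614 (Psme2) to 0.440 (Tnfsf10) in edgeR. At BPA 250, 4 rose: Cmpk2, Pias1, Trim34 and B2m, the light chain of MHC class I. B2m was at 2787, 1347, 2071 and 1871 CPM in control and 4472, 4145, 2556 and 3173 at BPA 250 (log2 fold change 0.83, edgeR adjusted p = 0.0360). Without the 4 libraries that stood apart, Cmpk2 and Pias1 passed (0.0197 for Pias1), whereas B2m (log2 fold change 0.72, adjusted p = 0.0834 in edgeR) and Trim34 (0.0730) did not. Pias1 alone rose at BPA 25, and at BPA 25000 Tnfsf10 rose and Socs1, an inhibitor of JAK signalling, fell from 12.7, 16.5, 12.6 and 13.5 to 6.71, 4.06, 7.02 and 3.41 CPM. These calls held without the 4 libraries (edgeR adjusted p of 0.0173 for Pias1, 0.00577 for Tnfsf10 and 0.0260 for Socs1). For Pias1 at BPA 25, however, none of the 4 is a library of BPA 25 or control. Without control library 2, control library 4 or BPA 25 library 1, 0 of all tested genes passed at BPA 25 in edgeR, so the Pias1 call was lost. None passed at EE2 0.05 or BPA 2500. Among the 8 groups, 24 of 90 differed (26.7%; 15 of the 36 antigen processing genes), against 31.7% of all tested genes, and 15 of 90 without the 4 libraries (16.7% against 26.4%). The 15 were B2m, Canx, Ifi30, Lgmn, Pias1, Ptpn6, Rfxap, RT1-CE10, RT1-Db1, RT1-DOa, RT1-DOb, Tapbpl, Tbk1, Tnfsf10 and Trim34, all of them also among the 24. The other 9 were Ifitm2, Ikbke, Lgals3bp, Mov10, Psme2, Rfxank, RT1-A1, RT1-CE5 and RT1-S3. A positive BPA slope passed for 3 genes, Ifi30, Lgmn and Tapbpl (3.33% of the 90, against 4.62% of all genes), and for none of them without the 4 libraries (edgeR adjusted p from 0.0687 to 0.124).

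RT1-CE10, a class I gene of the rat MHC and one of these 24, was singled out after its values were seen. RT1-CE10 was at 166, 69.7, 83.6 and 101 CPM in control, 128, 138, 156 and 196 at BPA 2.5, 64.5, 70.5, 66.1 and 83.8 at BPA 25, 52.9, 88.2, 67.1 and 69.3 at BPA 250 and 109, 165, 139 and 142 at BPA 25000. The means of BPA 25 and BPA 250 were the lowest of its 8 groups, and both groups overlapped control. The edgeR test among the 8 groups gave an adjusted p of 0.000324, and 0.00317 without the 4 libraries. Its pattern was not tested against that of Tap2. RT1 class I genes are near-identical to one another, so their counts are uncertain.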

How the data were processed

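The deposited table holds read counts per gene for 32 uterus libraries, made by the authors and indexed by NCBI gene ID. Per the submitters' processing notes the tools were bcl2fastq, TopHat and edgeR and the build was rn5; which versions were run, which program counted the reads, on which annotation and whether by strand, is not given in the sources used here. IDs were matched to symbols through RefSeq (GRCr8): 17167 of 17327 matched, and the other 160 held 1.82% of counts.

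Counts were tested with edgeR 4.0.16 in R 4.3.3 (quasi-likelihood F test, TMM scaling, filterByExpr with a minimum count of 10) in 1 model over all 8 groups, with Benjamini-Hochberg adjustment over the 13312 genes kept and a threshold of 0.05. There were 12 comparisons: 7 doses against control, any difference among the 8 groups, the mean of the EE2 and of the BPA doses against control, the slope over log10 BPA dose, and EE2 0.5 against EE2 0.05. Counts of members above control and medians use differences in mean log2 CPM with a prior count of 2. The fit was tested on simulated data. DESeq2 1.42.0, other scalings and filters, fits of only the groups compared and omissions of libraries were the alternatives. Depth (11777809 to 24661856 counts) sets the precision of low genes.

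The members and gene lists were chosen with earlier results of these data known, so no test over the list was made. Values in every library were given for members past the threshold and for a panel of 16 (Ifit1, Isg15, Mx1, Oas1a, Rsad2, Irf7, Irf1, Irf8, Stat2, Psmb8, Psmb9, Tap1, Gbp2, Cd74, Ciita, Ifi27). The 3 smallest p-values were taken where none passed, and pathway genes where they passed, those that differed only among the 8 groups by name alone; 1 pathway gene is not reported here. Parp9, Zbp1, Ifi47 and RT1-CE10 were added after their values were seen.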

Additional observations from a re-analysis of the deposited data

Results flagged for a closer look

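In 6 of the 168 sets of 4 libraries examined (20 named members and the members' median in each group), 1 library lay far from the other 3, by a gap that exceeds the 95% critical value of Dixon's ratio of gap to range; chance gives about 1 in 20. In BPA 2.5, library 2 was high for Ifit1 (37.4 CPM, the others 5.23 to 10.4), Rsad2 (61.1, the others 26.9 to 28.8) and Gbp2 (223, the others 113 to 129). Library 4 of BPA 2.5 was high for Oas1a (25.5 CPM, the others 12.5 to 14.5). Irf1 was high in BPA 25000 library 4 (85.0 CPM, the others 65.6 to 66.6). Gbp5 was high in control library 1 (32.9 CPM, the others 25.3 to 26), and the EE2 libraries were above this value too.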

How the results depend on the processing

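Of the member counts, those for EE2 0.05, BPA 2.5, BPA 2500 and EE2 0.5 against EE2 0.05 stayed at 0 calls in every alternative. With DESeq2 there were 2 calls at EE2 0.5 (Ciita, Gbp5; 3.68% of all genes), 2 at BPA 25 (Ifi47, Rsad2; 8.44%), 2 at BPA 25000 (Parp9, Rsad2; 5.90%), 10 among the 8 groups (43.3%), 2 for the mean of EE2 (Ciita, Gbp5; 2.60%), 1 for the mean of BPA (Rsad2; 5.83%) and 1 for the slope (Psmb8; 8.22%). Without the 4 libraries that stood apart there were 2 calls at BPA 25 (Ifi47, Rsad2; 10.2% of all genes), 3 at BPA 25000 (Ciita, Irf8, Rsad2; 5.59%), 1 for the mean of EE2 (Gbp5; 0.677%) and 1 for the mean of BPA (Rsad2; 4.68%). With only the groups compared in the fit there were 2 calls at EE2 0.5 (Gbp5, Parp9; 2.42%), 2 at BPA 25 (Ifi47, Rsad2; 9.63%) and 2 at BPA 250 (Rsad2, Tap2; 9.77%). The cause of these changes was not tested. None of the 4 libraries that stood apart was of control, EE2 or BPA 25. Leaving out 1 library at a time, the count ran from 0 to 1 at EE2 0.5 (Ciita, without control library 1), from 0 to 4 at BPA 250, from 0 to 3 at BPA 25000, from 3 (without BPA 2.5 library 1) to 9 (without BPA 2.5 library 2) among the 8 groups, from 0 to 1 for the mean of EE2 (Gbp5, without control library 1), from 0 to 1 for the mean of BPA (Parp9 without BPA 250 library 2, Rsad2 without BPA 25000 library 3) and from 0 to 1 for the slope. The log2 fold change of Rsad2 at BPA 250 ran from 1.63 to 2.40. Other scalings and filters on low counts changed no count by more than 1.5 times. Of 160 mean levels of named members, 159 were within 1 SD on plain CPM without TMM; the exception was Trim25 at BPA 2.5 (21.3 CPM). No paired analysis was possible because library numbers follow only the order of accession. Depth limits Zbp1, Ifng, RT1-DOb and the low libraries of Ifit1.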
